A study of Homo sapiens with 6 samples.

Results

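The regions described here are the ATAC-seq peaks of STK11 and of 6 genes of its kinase pathway (STRADA, STRADB, CAB39, CAB39L, PRKAA1 and PRKAA2) in A375 melanoma cells. A peak was counted as a member when its centre lay in the GENCODE release 44 body of one of these 7 genes, or when it was intergenic and one of them had the nearest protein-coding start site, which gave 67 of the 152800 peaks in the atlas. The genes were chosen by a measured value, the rise of 1 peak in an intron of STK11, so that this peak is described without a test. Of the 67 peaks, 41 were centred in an intron, 7 in an exon and 19 between genes. STK11 held 12 peaks, CAB39 21, CAB39L 11, STRADB 7, PRKAA2 6, and STRADA and PRKAA1 5 each.

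STK11 encodes LKB1, a serine/threonine kinase and tumour suppressor that works in a complex with a pseudokinase of the STRAD family (STRADA or STRADB) and a scaffold protein of the MO25 family (CAB39 or CAB39L). The complex phosphorylates and activates AMPK, the energy-sensing kinase whose catalytic subunits are encoded by PRKAA1 and PRKAA2, and a group of related kinases. In ATAC-seq the Tn5 transposase cuts accessible DNA and tags it for sequencing, and the number of reads in a peak measures how open that region is.

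A375 cells are an established line from a human melanoma. The 6 libraries came from 3 samples labelled empty vector and 3 labelled HMGB2OE, which carry a lentiviral construct for overexpression of HMGB2, a chromatin protein with a pair of HMG boxes that binds and bends DNA. The cells of both groups were frozen live and treated with DNase I before lysis. The study describes the samples of each condition as technical replicates of an experiment that was done once, so the SDs and p-values below measure the spread between libraries, which may be technical. Which part of HMGB2 the construct carries, and whether the stable lines were clonal, is not given in the sources used here.

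Counts in peaks summed to between 26910189 and 45645294 per library, and all 67 peaks were among the 150117 that passed the filter on low counts. Values are counts normalized to the mean effective library size, and fold changes compare HMGB2OE with empty vector on the log2 scale. A peak was called when edgeR's quasi-likelihood test gave a Benjamini-Hochberg adjusted p under 0.05 over all tested peaks and the fold change was at least 1.5. Promoter peaks were present at 3 of 6 melanocyte lineage genes (MITF, SOX10 and PMEL), with mean normalized counts of 862 to 3768, and not at MLANA, TYR or DCT. Of 6 genes of other cell types, PTPRC and ALB had no promoter peak and CD3E, EPCAM, PECAM1 and MYOD1 had peaks of 27.3 to 248.

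The STK11 peak that rose lies at chr19:1203153-1203654 (hg38), in an intron of the STK11 isoforms that start upstream. The gene runs from 1177558 to 1228431 on the plus strand, and its canonical transcript starts at 1205778, which puts the centre of the peak at -2.38 kb from that start. The same bases hold another annotated gene on the plus strand, HMGB2P1 (ENSG00000267736.2, chr19:1203209-1203842), a transcribed processed pseudogene of HMGB2, and 446 of the 502 bases of the peak (88.8%) lie inside it. A processed pseudogene is a copy of a spliced messenger RNA that was written back into the genome, so it holds exons joined without their introns. The central 300 bases of the peak (plus strand) are printed with the matching stretch of HMGB2 because the pair shows how closely this peak resembles the overexpressed gene. Capitals mark bases that differ from, or are missing in, the other sequence.
STK11 intron peak chr19:1203254-1203553: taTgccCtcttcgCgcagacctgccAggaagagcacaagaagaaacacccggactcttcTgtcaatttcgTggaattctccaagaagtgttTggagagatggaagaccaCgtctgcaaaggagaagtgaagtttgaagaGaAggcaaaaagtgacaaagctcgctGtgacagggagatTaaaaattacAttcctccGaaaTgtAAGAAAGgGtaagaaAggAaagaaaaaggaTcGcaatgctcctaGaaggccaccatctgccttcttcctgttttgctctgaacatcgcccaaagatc
HMGB2 coding bases 46 to 339: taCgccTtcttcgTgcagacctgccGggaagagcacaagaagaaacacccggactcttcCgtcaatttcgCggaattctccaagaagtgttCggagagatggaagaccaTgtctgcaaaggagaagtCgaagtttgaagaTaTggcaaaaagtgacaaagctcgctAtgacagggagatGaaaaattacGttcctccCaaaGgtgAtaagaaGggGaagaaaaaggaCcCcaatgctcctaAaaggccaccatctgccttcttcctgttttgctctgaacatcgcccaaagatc

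The HMGB2 sequence is spliced and was read from the minus strand between chr4:173332953-173333604 (hg38), and its 294 bases cross 2 exon junctions. Of the 300 peak bases 28 are in capitals, against 22 of the HMGB2 bases. Over the whole peak, 500 bases aligned to the HMGB2 transcript with 450 identical positions in 501 columns (89.8% identity), 43 mismatches and 8 gap columns. The longest identical run was 59 bases, and 32 of the 472 words of 31 bases in the peak were shared with the transcript. The alignment crossed 3 of the 4 exon junctions of HMGB2, and 439 peak bases aligned to its coding part. The peak whose counts rose therefore lies over HMGB2P1, and where its reads came from was not tested. The name STK11 applies to it through the isoforms that span the pseudogene, and through the canonical start. That start is the nearest STK11 start, and the peak centre at -2.38 kb lies within the 3 kb used here for promoters.

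At the HMGB2P1 peak the raw counts were 7, 8 and 18 in empty vector libraries 1 to 3 and 109, 101 and 78 in HMGB2OE libraries 1 to 3. Normalized counts were 9.73, 6.88 and 21.1 in empty vector and 92.7, 84.2 and 87.8 in HMGB2OE libraries. The groups did not overlap, and the lowest HMGB2OE library lay above the highest empty vector library, number 3. The means were 12.6 ± 7.50 and 88.2 ± 4.22 (SD, n = 3), a ratio of 7.03 and a log2 fold change of 2.84 (SE 0.31), which was the largest rise among all tested peaks. Without empty vector library 3 the log2 fold change was 3.44, and leaving out any other library gave values down to 2.47. The peak passed the low-count filter through its HMGB2OE libraries, and it has no value when at least 10 counts are required in every library. Of all counts in STK11 peaks it took 0.267 to 0.808% in empty vector and 3.44 to 3.62% in HMGB2OE libraries.

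The peaks over coding exons of HMGB2 also had higher counts in the HMGB2OE libraries. The HMGB2 peak at chr4:173332680-173333181, with 288 coding bases, had normalized counts of 50.0, 24.95 and 21.1 in empty vector and 102, 100.9 and 92.3 in HMGB2OE libraries. The groups did not overlap, and the log2 fold change was 1.67 (SE 0.25, edgeR adjusted p = 0.000113). At chr4:173331939-173332440, with 156 coding bases, the values were 31.96, 21.5 and 32.8 against 55.3, 75.1 and 58.5, without overlap, with a log2 fold change of 1.16 (SE 0.27, edgeR adjusted p = 0.00822). The HMGB2 promoter peak had means of 1986 ± 223 and 1973 ± 59.0 (SD, n = 3) and a log2 fold change of -0.01, and was not called. How reads that align to several places were treated is not given in the sources used here. Reads of the HMGB2 gene, of an integrated HMGB2 construct and of HMGB2P1 cannot be told apart in these counts where their sequence is shared. The part of such reads in the rise at chromosome 19, and in the rises at the HMGB2 exon peaks, was not tested. The p-values at the exon peaks therefore do not show that the HMGB2 gene itself became more open.

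**Figure D1:**
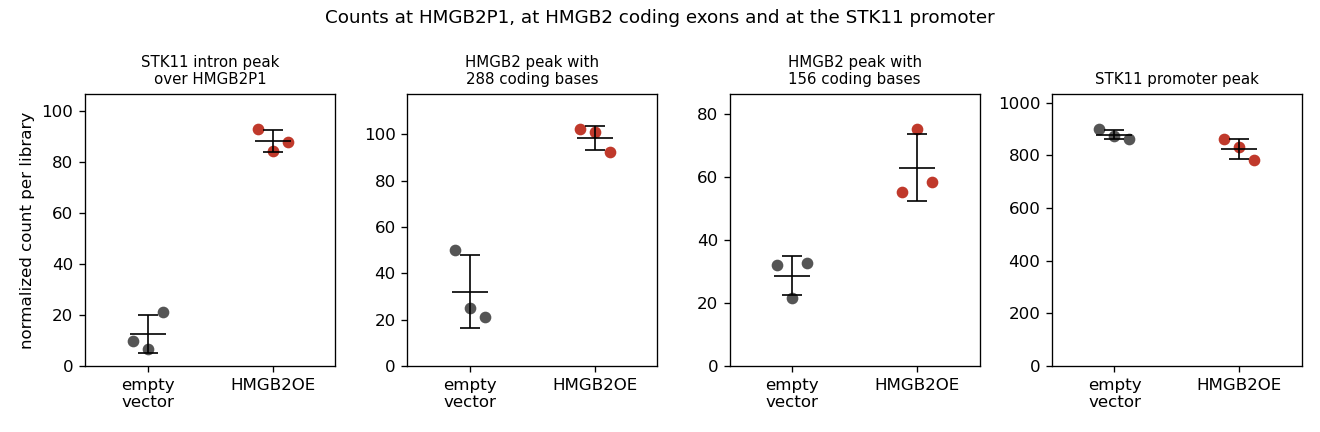
Normalized count per library (y axis) by group (x axis) at the STK11 intron peak over HMGB2P1, at both HMGB2 peaks with coding bases and at the STK11 promoter peak. Points are libraries and bars are the mean ± SD of 3, and each panel has its own scale from 0. The groups separate upward in the first 3 panels, while the STK11 promoter peak lies at 783.5 to 898 in all 6 libraries.

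Only 7 peaks of the atlas aligned to HMGB2 coding sequence in a blastn search (e-value limit 1e-05), namely the HMGB2P1 peak, the HMGB2 exon peaks and 4 others, and 1 of the 67 member peaks was among them. The other 4 overlap HMGB1P5, HMGB3P6, HMGB1P21 and HMGB1P25, pseudogenes of the related genes HMGB1 and HMGB3, and had 68.4 to 80.6% identity with HMGB2 over 158 to 386 aligned bases, against 90.2% over 447 at the HMGB2P1 peak. Their log2 fold changes were -0.62 to 0.11, their groups overlapped, and 0 were called by edgeR or DESeq2 or had an unadjusted p under 0.05 in edgeR. With 7 peaks, no relation between identity and fold change was tested.

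**Figure D2:**
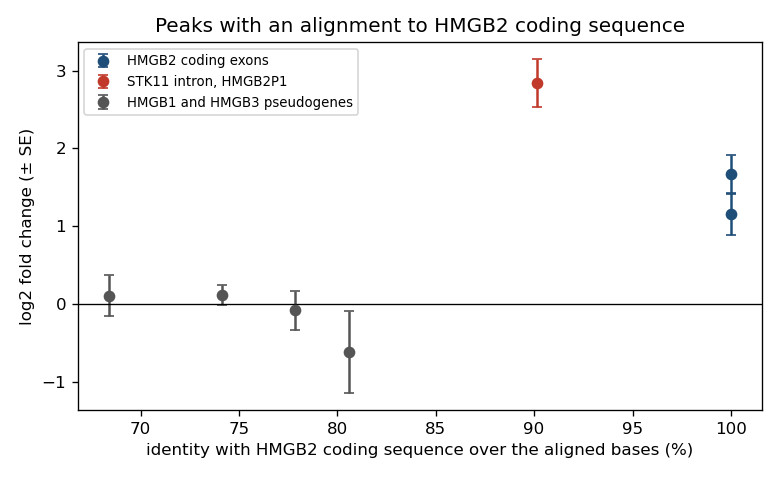
Log2 fold change (± SE, y axis) against percent identity with HMGB2 coding sequence (x axis) for the 7 peaks with an alignment. The peaks at 90.2% (HMGB2P1) and 100% (HMGB2 exons) have log2 fold changes of 2.84, 1.67 and 1.16, and the 4 peaks at 68.4 to 80.6% lie between -0.62 and 0.11.

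No other STK11 peak was called with the HMGB2P1 peak. Of the other 11, 0 passed both limits in edgeR and 0 in DESeq2, while 4 had an unadjusted p under 0.05 in edgeR. Summed over these 11 peaks, normalized counts were 2600.3, 2574 and 2586 in empty vector libraries (2587 ± 13.0, SD, n = 3) and 2466, 2367 and 2393 in HMGB2OE libraries (2409 ± 51.2), lower in every HMGB2OE library. Within 100 kb of the HMGB2P1 peak, 0 of 58 other peaks were called by edgeR and 0 by DESeq2 (11 had an unadjusted p under 0.05), with a median log2 fold change of -0.05 and a range of -1.05 to 0.48. The median over all tested peaks was -0.0049, and over tested peaks of chromosome 19 it was -0.074. On chromosome 19, edgeR called rises at 0.467% and falls at 1.36% of tested peaks, beside 1.87% and 1.44% in the whole atlas. With calls this rare, finding 0 among 11 or 58 peaks says little about the region. For the unadjusted p no share over the atlas is given, so nothing is read from those counts.

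The promoter peak of the canonical STK11 transcript (chr19:1205415-1205916) had normalized counts of 898, 874 and 862 in empty vector and 860, 831 and 783.5 in HMGB2OE libraries. The HMGB2OE libraries were all below the empty vector libraries by a small margin, and the log2 fold change of -0.09 (SE 0.08, edgeR adjusted p = 0.589) did not pass the test. The 300 bases before the start site (plus strand) are shown because this is the promoter of the gene the set is named for. Capitals mark GC boxes (GGGCGG) and CCAAT boxes (CCAAT), searched on both strands.
STK11 promoter chr19:1205478-1205777: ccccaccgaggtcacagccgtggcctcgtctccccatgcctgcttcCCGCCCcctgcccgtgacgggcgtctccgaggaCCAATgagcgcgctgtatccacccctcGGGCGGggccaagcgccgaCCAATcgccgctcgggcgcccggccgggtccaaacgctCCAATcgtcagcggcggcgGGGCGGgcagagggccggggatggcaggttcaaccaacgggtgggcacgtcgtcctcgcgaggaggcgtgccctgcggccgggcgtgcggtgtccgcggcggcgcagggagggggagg
These bases hold 3 GC boxes and 3 CCAAT boxes. The whole promoter peak of 502 bases holds 4 GC boxes and 3 CCAAT boxes. Among 150107 tested peaks of 502 bases, GGGCGG occurred in 21.0% and in 45.7% of promoter peaks, and CCAAT in 48.2% and 44.3%. A match is a description of the letters, and binding was not measured.

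At the upstream start of the gene, the STK11 peak chr19:1177618-1178119 had normalized counts of 275, 288 and 270.3 in empty vector and 202, 178 and 191 in HMGB2OE libraries. All HMGB2OE libraries were lower, with a log2 fold change of -0.55 (SE 0.12, edgeR adjusted p = 0.00469), which passed the p limit and stayed inside the fold limit. It passed both limits with GC offsets (-0.590), with replicate block and GC offsets (-0.593) and without HMGB2OE library 1 (-0.595). The intron peak chr19:1215048-1215549, 9.52 kb downstream of the canonical start, had 204, 253 and 272 against 320.5, 331 and 372, all HMGB2OE libraries higher. Its log2 fold change of 0.48 (SE 0.12, edgeR adjusted p = 0.0135) also stayed inside the fold limit, and its adjusted p was 0.0645 without empty vector library 1 and 0.0589 without HMGB2OE library 3.

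The intergenic peak chr19:1175895-1176396, which also lies within 3 kb of a start site of SBNO2, had 48.6, 30.97 and 18.7 against 17.0, 16.7 and 12.4. The groups did not overlap, but empty vector libraries spread widely and the log2 fold change of -1.05 (SE 0.40, edgeR adjusted p = 0.113) did not pass the test. The remaining 7 STK11 peaks, from 1180404, 1183832, 1189421, 1194498, 1207224, 1221495 and 1222954, had log2 fold changes of -0.28, -0.18, -0.09, -0.36, -0.04, -0.11 and 0.40, and none passed the test. All 6 peaks upstream of the HMGB2P1 peak had values below 0 (median -0.32, groups without overlap in 5), against 3 of the 5 downstream (median -0.04). Of all tested peaks 12.5% had every HMGB2OE library below every empty vector library, and of tested chromosome 19 peaks 18.6% did so and 63.9% had values below 0. Whether the upstream and downstream peaks differ was not tested.

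**Figure D3:**
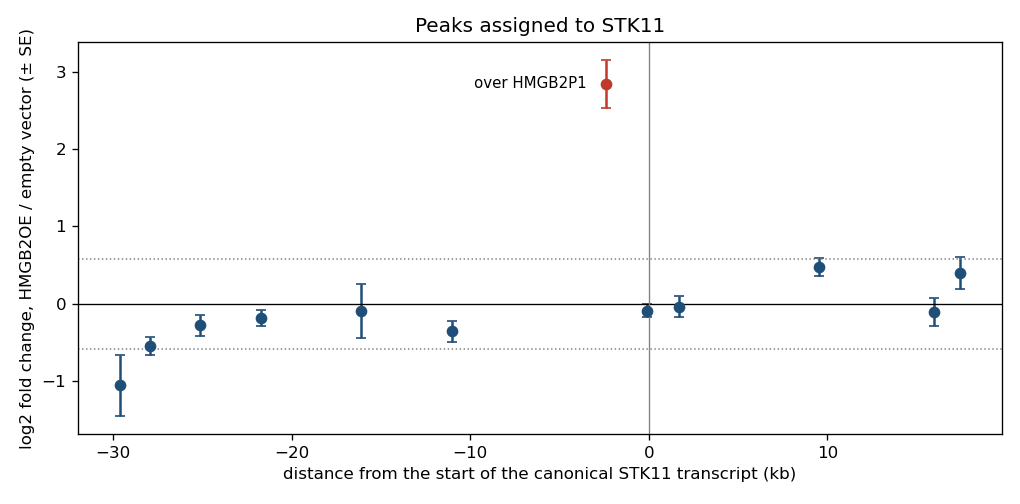
Log2 fold change (± SE, y axis) of the 12 STK11 peaks against distance from the canonical start (kb, x axis). Dotted lines mark the fold limit of 1.5, and the vertical line the start. The HMGB2P1 peak is at 2.84 and the other 11 peaks lie between -1.05 and 0.48.

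Over all 7 genes, 2 of the 67 peaks were called higher, including the HMGB2P1 peak on which the genes were selected, and 1 was called lower. Across the atlas the same limits gave rises in 1.87% and falls in 1.44% of tested peaks, and nothing is read from the comparison, since the rule used this contrast. With the p limit alone 3 member peaks were higher, the HMGB2P1 peak among them, and 2 lower, beside 3.44% and 3.03% of all tested peaks. The median log2 fold change of the members was -0.05. Groups did not overlap in 7 member peaks that were higher (10.4%) and 12 that were lower (17.9%), beside 12.6% and 12.5% of all tested peaks, and 48 overlapped. The 7 include the HMGB2P1 peak, and without it the counts were 6 (9.09%) and 12 (18.2%) of 66.

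**Figure D4:**
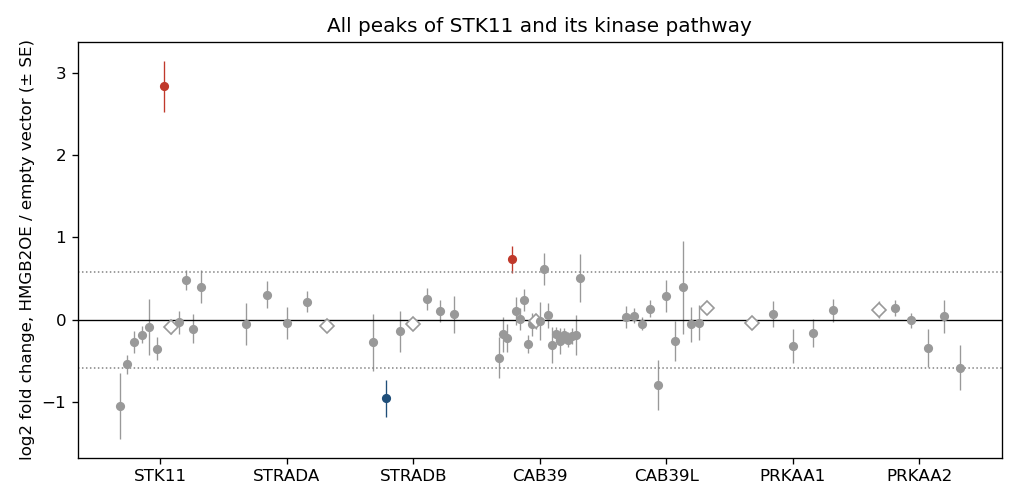
Log2 fold change (± SE, y axis) of the 67 peaks by gene (x axis), in order of position within a gene. Red points are called higher, the blue point is called lower, open diamonds are the main promoter peaks and dotted lines mark the fold limit of 1.5. Only the HMGB2P1 peak in STK11 lies above 0.74.

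The promoter peaks of the pathway had counts in every library, and 0 of the 7 main promoter peaks were called by edgeR or DESeq2, nor had any an unadjusted p under 0.05 in edgeR. Of all tested promoter peaks 0.978% were called higher and 0.789% lower. At such shares, 0 calls among 7 peaks says little about these genes. For the pseudokinases, STRADA had means of 1190 ± 47.7 and 1126 ± 15.9 (SD, n = 3) in empty vector and HMGB2OE, with a log2 fold change of -0.08 (edgeR adjusted p = 0.609). STRADB had 1195 ± 19.1 and 1153 ± 8.16, with a log2 fold change of -0.05 (edgeR adjusted p = 0.75). The STRADA groups overlapped and the STRADB groups did not, and in neither case was the difference past the test. The sign for STRADB turned under loess scaling, and its peak also lies within 3 kb of a start site of TRAK2.

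For the MO25 scaffolds, CAB39 had promoter means of 539 ± 30.4 and 532 ± 18.7 (SD, n = 3), with a log2 fold change of -0.02 (edgeR adjusted p = 0.933). Its groups overlapped, and the sign of the difference changed with the scaling. CAB39L had the highest promoter count of the set, 2642, 2865 and 2963 in empty vector and 3165, 2980 and 3174 in HMGB2OE libraries, all higher. Its log2 fold change was 0.14 (SE 0.07, edgeR adjusted p = 0.264), and 0.20 with an adjusted p of 0.00725 after loess scaling by mean count. This peak also lies within 3 kb of a start site of SETDB2.

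For the AMPK catalytic subunits, PRKAA1 had promoter means of 1103 ± 50.3 and 1074 ± 63.8 (SD, n = 3), with a log2 fold change of -0.04 (edgeR adjusted p = 0.834). PRKAA2 had 414 ± 20.5 and 449.7 ± 29.8, with a log2 fold change of 0.12 (edgeR adjusted p = 0.541). The groups of both genes overlapped, and the sign for PRKAA1 turned under loess scaling. The peaks of PRKAA1 were all intergenic, and none was centred in its body.

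**Figure D5:**
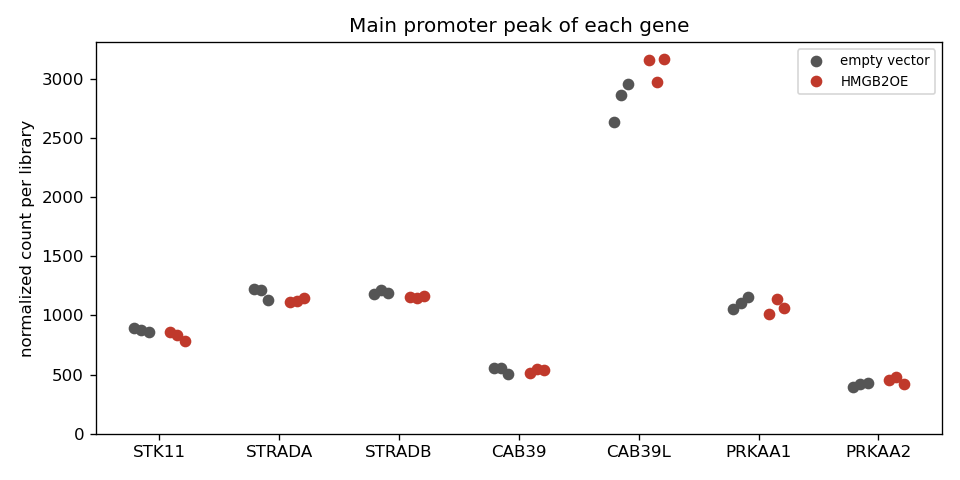
Normalized count per library (y axis, from 0) at the main promoter peak of each of the 7 genes (x axis), with empty vector and HMGB2OE libraries side by side. The CAB39L promoter has the highest counts (2642 to 3174), and no gene shows a called difference.

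The called rise besides the HMGB2P1 peak was an intergenic peak away from promoters, at -62.0 kb from the start of CAB39, chr2:230650556-230651057. It had normalized counts of 82.0, 96.4 and 86.6 in empty vector and 119.9, 165 and 161 in HMGB2OE libraries. All HMGB2OE libraries were higher, and the log2 fold change of 0.74 (SE 0.16, edgeR adjusted p = 0.00601) held when any single library was left out (0.65 to 0.88). The called fall was at chr2:201420439-201420940, in an intron of long STRADB isoforms, at -31.05 kb from the canonical start and also inside TRAK2, a gene for a motor adaptor protein. Counts there were 90.3, 78.3 and 72.6 in empty vector and 33.2, 45.9 and 45.0 in HMGB2OE libraries. All HMGB2OE libraries were lower, with a log2 fold change of -0.96 (SE 0.23, edgeR adjusted p = 0.00886) that lost its call without HMGB2OE library 1 (-0.81, adjusted p = 0.0663).

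The central 300 bases of both peaks (plus strand, hg38) are shown because these are the called member peaks besides HMGB2P1. Capitals mark AP-1 words (TGACTCA or TGAGTCA, both strands), which were found in 1 place in the STRADB stretch and not in the CAB39 stretch.
STRADB peak chr2:201420540-201420839: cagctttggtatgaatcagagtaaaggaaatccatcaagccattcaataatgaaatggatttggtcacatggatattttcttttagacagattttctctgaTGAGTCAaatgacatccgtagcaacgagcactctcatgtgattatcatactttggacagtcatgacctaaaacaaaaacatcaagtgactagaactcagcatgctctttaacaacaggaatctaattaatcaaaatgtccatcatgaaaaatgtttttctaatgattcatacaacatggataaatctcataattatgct
CAB39 peak chr2:230650657-230650956: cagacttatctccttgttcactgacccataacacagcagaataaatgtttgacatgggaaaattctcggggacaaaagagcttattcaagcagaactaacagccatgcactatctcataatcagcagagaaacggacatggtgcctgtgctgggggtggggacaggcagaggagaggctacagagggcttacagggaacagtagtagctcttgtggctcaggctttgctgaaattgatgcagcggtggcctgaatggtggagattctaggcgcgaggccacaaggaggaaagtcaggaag
The whole STRADB peak holds 2 AP-1 words and the whole CAB39 peak 0. Over whole peaks of 502 bases, AP-1 words occurred in 24 of 67 member peaks (35.8%) and in 28.0% of the 150107 tested peaks. Neither printed stretch has a blastn alignment to HMGB2 coding sequence.

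Outside STK11, the uncalled peaks of largest change were in CAB39L and CAB39. A CAB39 intron peak from 230752628 had normalized counts of 48.6, 71.4 and 64.4 in empty vector and 83.3, 108 and 94.6 in HMGB2OE libraries, without overlap, and a log2 fold change of 0.61 (edgeR adjusted p = 0.0577). A CAB39L intron peak from 49351846, at -969 bases from a CAB39L start, had 34.7, 43.0 and 56.2 against 24.7, 27.5 and 24.8. Its groups also did not overlap, and its log2 fold change was -0.80 (edgeR adjusted p = 0.113). Neither passed the test, and the other CAB39 and CAB39L peaks named by size of change, from 230814489 and 49378999, had log2 fold changes of 0.51 and 0.39. The peak from 49378999 lies at -2118 bases from a CAB39L start and had raw counts of only 5 to 17 per library.

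In the other genes the largest differences among uncalled peaks were -0.59 and -0.35 for PRKAA2 (exon peak from 56710520 and intron peak from 56696591), -0.32 and -0.16 for PRKAA1 (from 40800128 and 40801218), 0.30 and 0.22 for STRADA (from 63696546 and 63699748), and -0.28 and 0.25 for STRADB (from 201418971 and 201465488). None passed the test. All 5 STRADA peaks lie in the body of another protein-coding gene as well, 3 of them in LIMD2, and 8 of the 67 peaks do so in all, so that the gene they belong to is uncertain.

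The rest of the pathway was read from a list of 36 genes taken by textbook role, with 520 tested peaks. Of these 11 were called higher (2.12%) and 5 lower (0.962%), shares near the 1.87% and 1.44% of all tested peaks, and the median log2 fold change of the list was 0.05. Of the 48 peaks of the AMPK beta and gamma subunit genes, 0 were called by edgeR and 0 by DESeq2. At such shares this says little about these genes. With the p limit alone edgeR gave 0 higher and 2 lower, beside 3.44% and 3.03% of all tested peaks. An unadjusted p under 0.05 in edgeR was found at 8 of the 48, and without an atlas share nothing is read from it. Among the other kinases that LKB1 phosphorylates, 4 peaks were higher and 2 lower of 187, among the other upstream kinases of AMPK 3 were higher and 1 lower of 52, and among downstream genes 4 were higher and 2 lower of 233.

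The largest changes of the list were in PPARGC1A, a coactivator of mitochondrial genes, and in NUAK1, an AMPK-related kinase. The PPARGC1A peak inside the gene had normalized counts of 122, 124 and 146 in empty vector and 68.9, 42.5 and 54.0 in HMGB2OE libraries, a log2 fold change of -1.24 (SE 0.19, edgeR adjusted p = 0.000149). An intergenic NUAK1 peak 144.6 kb from the start had 61.2, 67.1 and 58.5 against 138, 136 and 139.6, a log2 fold change of 1.14 (SE 0.17, edgeR adjusted p = 0.000104), and a second at 201.5 kb rose by 0.92. The groups did not overlap at these 3 peaks. Of the 56 tested PPARGC1A peaks 3 others were called in the opposite direction, with rises of 0.78, 0.78 and 0.69, and at the last of them the groups overlapped. These 3 were named after their values were seen.

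Of the other called peaks among the 8 of largest change, MAP3K7, the gene for the kinase TAK1, had 3 distant intergenic peaks, at 712.6, 1118 and 283.6 kb from its start, with log2 fold changes of 1.10, -0.83 and 0.83. A peak inside SIK2, a salt-inducible kinase, rose by 1.07, and it lies nearer to the start of PPP2R1B. A peak inside TBC1D1, a regulator of glucose transporter traffic, rose by 0.92. The MAP3K7 peaks show both directions, and assignment over such distances rests on the nearest start site alone.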

How the data were processed

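ATAC-seq was done on 3 empty vector and 3 HMGB2OE samples of A375 cells. The authors deposited raw read counts per peak, made with featureCounts and not normalized. Upstream of these, reads had been trimmed (Trim Galore 0.6.7, cutadapt 4.0, versions from the submitters' processing notes), mapped to hg38 by Bowtie 2 and deduplicated in Picard. MACS2 then found peaks, with published melanocyte data as its control, and the atlas was built by merging neighbouring peaks outside blacklisted regions. How reads with several alignments were treated, the Tn5 shift, and whether peaks were called per library are not given in the sources used here. These steps bear on weak peaks and on peaks of repeated sequence, such as pseudogenes.

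Counts were fitted with edgeR 4.0.16 in R 4.3.3 (TMM over tested peaks, filterByExpr, quasi-likelihood F test, no covariate). TMM factors were 0.975 to 1.02. Within a group, every pair of libraries differed by more than sampling noise (chi-square per degree of freedom 2.50 to 4.66), so all 6 were kept as separate libraries. For normalized counts, each count was scaled by its library's effective size to the mean size. Standard errors are the log2 fold change divided by the root of F. The fit was tested on simulated data. Groups came from the sample titles. The replicate numbers name libraries and were not used as a block.

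Peaks were assigned with GENCODE release 44. The main promoter peak of a gene is the one of highest mean count within 3 kb of its starts. HMGB2-like peaks were found with BLAST+ 2.17.0. The peaks named are all STK11 peaks and, for each other gene, its main promoter peak, its called peaks and the 2 others of largest change. For the 36-gene list they are at most the 8 called peaks of largest change. Members, lists, tests and alternatives were chosen with earlier results of these data known. The alternatives were other scalings, DESeq2 1.42.0, other count filters, fold limits and peak assignment, GC offsets, the replicate block, and leaving out each library.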

Additional observations from a re-analysis of the deposited data

How the results depend on the processing

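The rise at the HMGB2P1 peak kept its direction in all 14 alternatives that gave a value (2.47 to 3.44 with a library left out), and had none under the filter of at least 10 counts in every library, since the peak is removed. With that filter, or with the peak left out (chosen after seeing the data), 1 member peak and 0 STK11 peaks were called higher. Member peaks called higher were 3 with library size only, with GC offsets, with the replicate block, and with block and GC offsets. In these fits STK11 peaks called higher remained 1. They were also 3 for the members with a looser fold limit or none. Member peaks called lower were 2 with GC offsets, with the replicate block and GC offsets together, and with a looser fold limit or none, and 0 when every peak went to the nearest start site or when peaks inside another protein-coding gene were left out (chosen after seeing the data), since the STRADB peak lies in TRAK2. STK11 peaks called lower were 1 with GC offsets, with block and GC offsets, and with a looser fold limit or none, and 0 to 1 with a library left out (1 without HMGB2OE library 1). Each time this was the peak chr19:1177618-1178119. STK11 peaks called higher were 2 with a looser fold limit or none. Pathway-list calls were 25 higher and 12 lower with the looser limit, 25 and 13 with none, and 3 to 6 lower (8 to 14 higher) with a library left out, 3 lower without empty vector library 2. Main promoter calls were 0 in all 20 alternatives, beside shares of 0.978% higher and 0.789% lower among all tested promoter peaks in the main fit. Signs near 0 reversed for the STRADB promoter (0.0025 with loess), the CAB39 promoter (0.00035 with library size only, 0.016 with loess, 0.0092 with GC offsets, 0.010 with block and GC offsets, and -0.068 to 0.0091 with a library left out) and the PRKAA1 promoter (0.016 with loess, and -0.086 to 0.00085 with a library left out), and the cause was not tested. With the replicate block the HMGB2P1 peak had a log2 fold change of 2.86, and over all peaks 5575 were called against 4966, of which 4906 were shared. The replicate numbers do not mark a shared day or source, their correlations of deviations were -0.088, 0.19 and 0.13, and 1 of 3 numbers correlated best with itself. Counts of 7 to 18 in empty vector libraries limit the precision of the fold at the HMGB2P1 peak.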

Other observations

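Over the 6 libraries, the peaks whose log2 normalized counts followed those of the HMGB2P1 peak most closely, among 146924 peaks of other genes with a mean of at least 20, were assigned to BARX2, ADGRF5, CTAGE1, UTRN and AKR1E2, each with a Pearson r of at least 0.998. Their log2 fold changes were 0.87, 0.54, 0.95, 0.67 and 0.90, far below that of the HMGB2P1 peak. With 6 points in 2 groups this likeness reflects the group difference and the order of the libraries, and 1543 peaks had an r above 0.95. The HMGB2 exon peaks ranked lower, with r of 0.948 and 0.827, and the HMGB2 promoter peak had r of 0.17.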
